A study of Homo sapiens with 30 samples.

Results

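The levels of 9 genes of the fibroblast growth factor (FGF) axis between gut and liver were followed in HepG2 cells exposed to sorafenib. They were β-Klotho (KLB), the receptors FGFR1, FGFR2, FGFR3 and FGFR4, the hormones FGF19 and FGF21, and the bile acid genes CYP7A1 and NR0B2. These were 9 of the 60107 genes of the count table, and each was found there by its symbol. FGF signalling genes were taken as a pathway, but KLB was chosen on its measured values, because its level was lower with sorafenib at the later time. Which libraries that choice rested on is not stated, so all values of KLB are given as a description with no test.

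FGF19 and FGF21 are hormone-like FGFs that bind their receptors only weakly unless a Klotho protein holds the complex together. KLB is the Klotho of the liver, and with FGFR4 it forms the hepatocyte receptor for FGF19. In healthy liver FGF19 arrives from the ileum after bile acids activate the nuclear receptor FXR, and signalling through KLB and FGFR4 represses CYP7A1, the rate-limiting enzyme of bile acid synthesis. NR0B2 encodes SHP, a nuclear repressor induced by FXR that also acts on CYP7A1. FGF21 is made by the liver itself in fasting and under cell stress, and acts mainly on other tissues through KLB with FGFR1.

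HepG2 is a human liver tumour line. Its cells were transfected with 1 of 5 oligonucleotides, namely a miR-200c-3p inhibitor (I200c) or the control for inhibitors (IC), or a miR-222-5p mimic (M222), a miR-512-3p mimic (M512) or the control for mimics (MC). From 24 h after transfection they received 10 µM sorafenib, a kinase inhibitor used against liver cancer, or its vehicle dimethyl sulfoxide (DMSO). IC and I200c cells were lysed after 6 h and MC, M222 and M512 cells after 24 h, so the time and the kind of control oligonucleotide cannot be told apart. Each of the 10 groups held 3 libraries, which the series describes as biological replicates.

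Libraries held 3938764 to 9657063 counts. All 7 hepatocyte markers (ALB, APOA1, APOB, AFP, TTR, SERPINA1 and TF) were read in all 30 libraries, and their summed level was 6945 to 16810 counts in each 1000000 of a library (CPM). Of 7 markers of other liver cells, VWF and COL1A2 had no count and PTPRC had 1 count in all. LYVE1 had 39 counts, PECAM1 112 and COL1A1 550. CD68 had 906 counts and was read in every library, at up to 11.14 CPM. The summed level of the 7 stayed between 1.40 and 17.97 CPM. Levels below are CPM with TMM scaling over all 30 libraries. Overlap of libraries between groups is given as a description only, because the share of all genes without overlap was not computed. The library method yields 1 fragment per transcript, from its 3′ end, so CPM was not divided by gene length.

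KLB (ENSG00000134962; chromosome 4, 39406930 to 39451533, plus strand, GRCh38) was read in every library, with 44 to 1595 counts. At 6 h its level was similar in all 4 groups or somewhat higher with sorafenib, whereas at 24 h it was several times lower with sorafenib in each of the 3 transfections. In IC cells the DMSO libraries held 58.3, 61.6 and 39.0 CPM and the sorafenib libraries 66.3, 70.3 and 60.2 CPM. In I200c cells the values were 50.9, 48.0 and 56.9 CPM in DMSO and 67.1, 83.4 and 67.3 CPM in sorafenib. The groups overlapped in IC, and in I200c all 3 sorafenib libraries were above all 3 DMSO libraries.

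In MC cells at 24 h, KLB stood at 180, 141 and 231 CPM in DMSO and at 14.1, 54.7 and 31.0 CPM in sorafenib. In M222 cells it stood at 76.8, 88.7 and 88.0 CPM in DMSO and at 13.1, 39.5 and 16.4 CPM in sorafenib. In M512 cells it stood at 123, 106 and 96.1 CPM in DMSO and at 22.3, 8.59 and 13.7 CPM in sorafenib. No 24 h transfection had a sorafenib library as high as any of its DMSO libraries. The second sorafenib library was the highest of its group in MC and in M222.

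**Figure D1:**
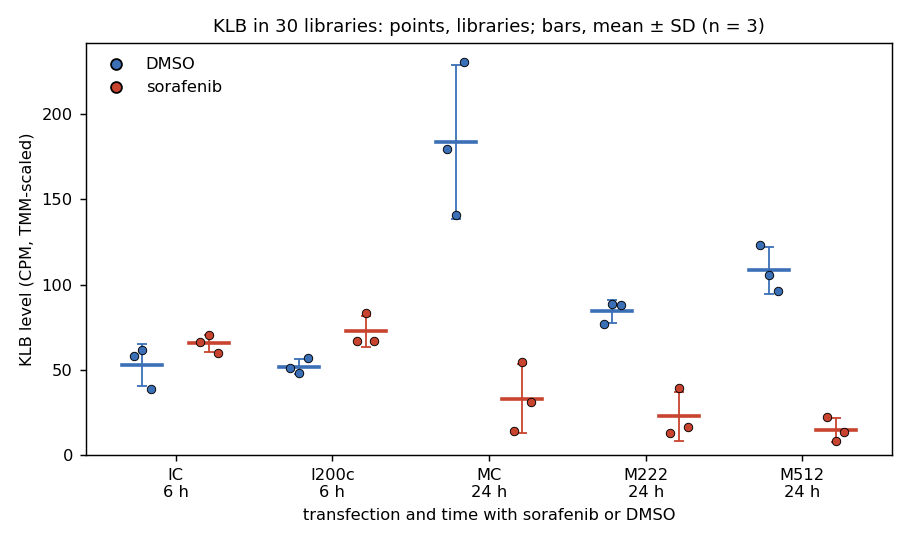
KLB level (CPM, TMM-scaled, linear axis from 0) in each of the 30 libraries by transfection and time, with DMSO in blue and sorafenib in red. Points are libraries, and bars give the mean and SD of 3. Sorafenib means lay above DMSO means at 6 h (65.6 against 53.0 CPM in IC) and below them at 24 h (33.3 against 184 CPM in MC).

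As a description only, KLB was 7.26-fold lower with sorafenib in M512 (log2 fold change -2.86 ± 0.41, SE), 5.55-fold lower in MC (-2.47 ± 0.40, SE) and 3.74-fold lower in M222 (-1.90 ± 0.40, SE). At 6 h the log2 fold change was 0.30 ± 0.18 (SE) in IC and 0.47 ± 0.18 (SE) in I200c. Without the second sorafenib library the log2 fold change was -3.00 in MC and -2.49 in M222. Because cells were lysed in bulk, fewer cells with the transcript and less transcript per cell cannot be told apart.

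The difference of the log2 fold changes in MC and IC, fitted over the 12 control libraries, was -2.81 ± 0.46 (SE). Part of this difference lay in the DMSO libraries, which averaged 53.0 ± 12.2 CPM (SD, n = 3) in IC and 184 ± 45.1 CPM in MC. The sorafenib libraries averaged 65.6 ± 5.09 CPM in IC and 33.3 ± 20.4 CPM in MC.

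Ordered by group mean, KLB was lowest in the 3 sorafenib groups of 24 h (14.9 CPM in M512, 23.0 in M222 and 33.3 in MC), whose libraries overlapped one another. The 4 groups of 6 h followed at 51.9 to 72.6 CPM, each overlapping its neighbours. The 24 h DMSO groups were the highest, at 84.5 CPM in M222, 108 CPM in M512 and 184 CPM in MC. Among these the libraries of M222 and M512 did not overlap, nor did those of M512 and MC.

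The summed level of the hepatocyte markers was also lower with sorafenib at 24 h. With DMSO it was highest in M512, whereas KLB was highest in MC, and the markers were not compared singly. Their summed level was 11910 to 13630 CPM in MC with DMSO and 8565 to 10600 CPM with sorafenib. It was 10670 to 13170 against 6945 to 9752 CPM in M222, and 15770 to 16810 against 8833 to 10780 CPM in M512. At 6 h the sums with DMSO and with sorafenib overlapped in both transfections. The part of this shift in the KLB result was not tested.

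RefSeq (GRCh38.p14) gives 1 promoter window for KLB, from 250 bases before to 50 bases after the transcript start, at chr4:39406680-39406979 on the plus strand. It is shown because KLB is the co-receptor whose levels lead this account, and it was searched on both strands for 4 motifs: TGATGNAA (the CARE element bound by ATF4 with C/EBP partners), AGGTCA (bound by many nuclear receptors), CAAAGTCCA (an HNF4 element) and CACGTG (an E-box). None of these 4 words was found in it, which says nothing of more distant sites.
KLB promoter: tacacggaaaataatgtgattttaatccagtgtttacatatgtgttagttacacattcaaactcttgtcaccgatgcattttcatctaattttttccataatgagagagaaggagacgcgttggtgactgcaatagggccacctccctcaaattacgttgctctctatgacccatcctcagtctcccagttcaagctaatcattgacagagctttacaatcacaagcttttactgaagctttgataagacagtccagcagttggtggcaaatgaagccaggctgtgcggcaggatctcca

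The 5 genes below followed KLB most closely over the 10 group means of log2 CPM, among 10699 genes with a mean count of at least 20. They were EHHADH (r = 0.991), PAQR8 (0.987), NFATC2 (0.983), KLHL22 (0.98) and HGSNAT (0.973). EHHADH, a peroxisomal enzyme of fatty acid oxidation, averaged 52.9 ± 10.9 CPM in MC with DMSO and 18.3 ± 2.91 CPM with sorafenib (SD, n = 3), against 26.9 and 26.6 CPM in IC. PAQR8, a membrane progestin receptor, averaged 86.7 CPM in MC with DMSO and 28.0 CPM with sorafenib. HGSNAT is a lysosomal enzyme of heparan sulfate breakdown, and it averaged 36.6 CPM in MC with DMSO and 18.1 CPM with sorafenib. These genes were picked for this likeness, the points share libraries, and no p is given. Among the members, NR0B2 correlated with KLB at 0.617, FGFR1 at 0.299, FGFR4 at 0.001 and FGFR3 at -0.101 on the same measure.

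**Figure D2:**
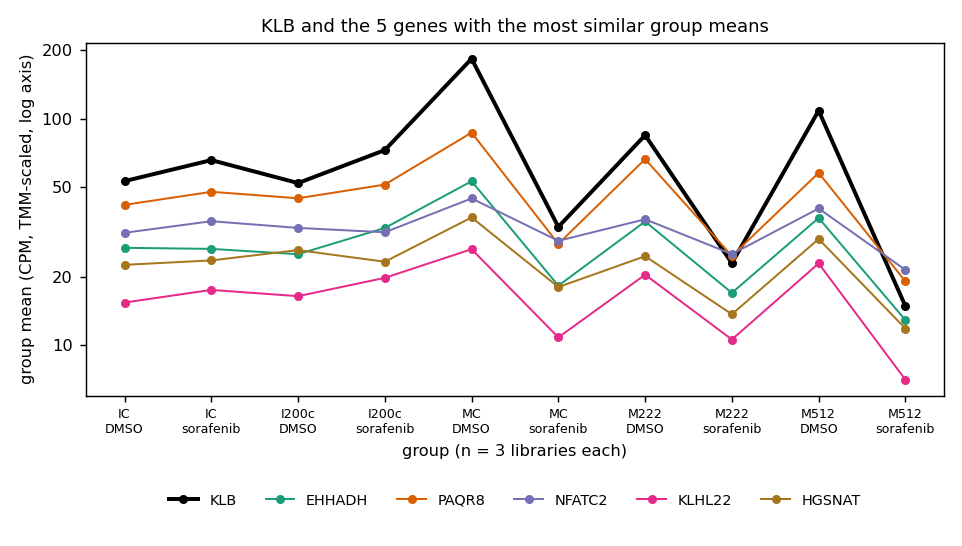
Group means (CPM, TMM-scaled, log axis, n = 3 libraries each) of KLB and of the 5 genes chosen for the most similar profile over the 10 groups. All 6 lines peak in MC with DMSO (184 CPM for KLB and 52.9 CPM for EHHADH) and are lowest in M512 with sorafenib (14.9 and 12.9 CPM).

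NR0B2 (ENSG00000131910; chromosome 1, 26911489 to 26913975, minus strand) was the only member that passed a test, and fell with sorafenib in M512 and M222. In M512 cells it stood at 55.3, 63.2 and 55.3 CPM in DMSO and at 23.5, 30.2 and 21.5 CPM in sorafenib. This was 2.31-fold lower (log2 fold change -1.21 ± 0.25, SE, adjusted p = 0.00243, edgeR). In M222 cells it stood at 47.4, 44.5 and 47.0 CPM in DMSO and at 19.2, 23.8 and 19.8 CPM in sorafenib, or 2.23-fold lower (log2 fold change -1.15 ± 0.25, SE, adjusted p = 0.00754, edgeR). The M222 call was lost without sorafenib replicate 1 or without replicate 3, with an adjusted p of up to 0.0607.

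The remaining transfections gave NR0B2 lower means with sorafenib that did not pass the test. Lack of overlap does not stand in for that test. In MC the libraries did not overlap, with 37.2, 42.3 and 60.8 CPM in DMSO and 33.0, 33.8 and 20.6 CPM in sorafenib (log2 fold change -0.68 ± 0.24, SE, adjusted p = 0.137, edgeR). In I200c they were 30.6, 21.4 and 40.8 CPM against 21.2, 17.1 and 16.0 CPM, also without overlap (log2 fold change -0.78 ± 0.27, SE, adjusted p = 0.14, edgeR). Without the second I200c DMSO library, the lowest of its group, the adjusted p in I200c was 0.043. In IC the DMSO libraries were 33.4, 33.8 and 32.4 CPM and the sorafenib libraries 26.4, 36.0 and 15.8 CPM, which overlapped (log2 fold change -0.35 ± 0.27, SE, adjusted p = 0.999, edgeR).

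NR0B2 values carry an uncertainty of counting. Its 3′ untranslated region overlaps NUDC, a gene on the opposite strand with 14631 counts over the 30 libraries, and how the counting used strand is not given in the sources used here. NUDC itself stood at 74.4, 112 and 88.8 CPM in M512 with DMSO and at 76.9, 88.6 and 113 CPM with sorafenib. In M222 it stood at 50.6, 65.4 and 65.9 CPM in DMSO and at 44.01, 52.0 and 75.1 CPM in sorafenib. NUDC libraries with and without sorafenib overlapped in both transfections. Whether reads from NUDC entered the NR0B2 counts was not tested.

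The receptor tyrosine kinases themselves did not pass the test in any transfection. FGFR4 (ENSG00000160867; chromosome 5), the main FGF receptor of hepatocytes, was 36.9 to 75.6 CPM over all libraries. Its 10 group means ran from 43.3 CPM in MC with DMSO to 60.6 CPM in M512 with DMSO, and each group overlapped its neighbours in that order. In MC, where KLB differed most in CPM, FGFR4 stood at 53.2, 36.9 and 39.8 CPM in DMSO and at 52.5, 41.4 and 39.5 CPM in sorafenib. The log2 fold change there was 0.04, with a 95% interval of -0.46 to 0.54, and in M512 it was -0.06, with an interval of -0.55 to 0.43. With 3 libraries a group, changes within these intervals were not excluded.

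FGFR3 (ENSG00000068078; chromosome 4) had group means from 71.0 CPM in I200c with DMSO to 132 CPM in M512 with sorafenib. In IC its libraries stood at 75.2, 89.6 and 72.8 CPM in DMSO and at 93.2, 91.2 and 121 CPM in sorafenib, without overlap, and the contrast did not pass (log2 fold change 0.36 ± 0.17, SE, adjusted p = 0.999, edgeR). At 24 h the sign varied between transfections, from -0.35 ± 0.26 (SE) in MC to 0.14 ± 0.26 (SE) in M512 on the log2 scale. All these libraries overlapped.

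FGFR1 (ENSG00000077782; chromosome 8), the partner of KLB outside the liver, had group means from 64.5 CPM in M512 with sorafenib to 119 CPM in I200c with DMSO. In I200c its libraries were 126, 101 and 130 CPM in DMSO and 77.1, 96.9 and 98.4 CPM in sorafenib, which did not overlap (log2 fold change -0.40 ± 0.17, SE, adjusted p = 0.269, edgeR). In M512 they were 108, 82.5 and 96.2 CPM in DMSO and 86.9, 32.0 and 74.7 CPM in sorafenib (log2 fold change -0.56 ± 0.26, SE, adjusted p = 0.186, edgeR). The low value of 32.0 CPM came from 1 library with 164 FGFR1 counts, without which the log2 fold change was -0.24. In MC and M222 the log2 fold changes were 0.01 and -0.02.

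FGFR2 (ENSG00000066468; chromosome 10) was near the lower limit of these libraries, with 1 to 30 counts each and a median of 1.66 CPM. Its lowest group mean was 0.966 CPM in MC with sorafenib and its highest 2.73 CPM in MC with DMSO. The MC libraries were 1.15, 2.70 and 4.34 CPM in DMSO and 0.279, 1.59 and 1.03 CPM in sorafenib, which overlapped (log2 fold change -1.50, 95% interval -3.72 to 0.72). In M512 a single sorafenib library held 30 of the 37 FGFR2 counts of its group, and the log2 fold change there was -0.17 with it and -2.07 without it.

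**Figure D3:**
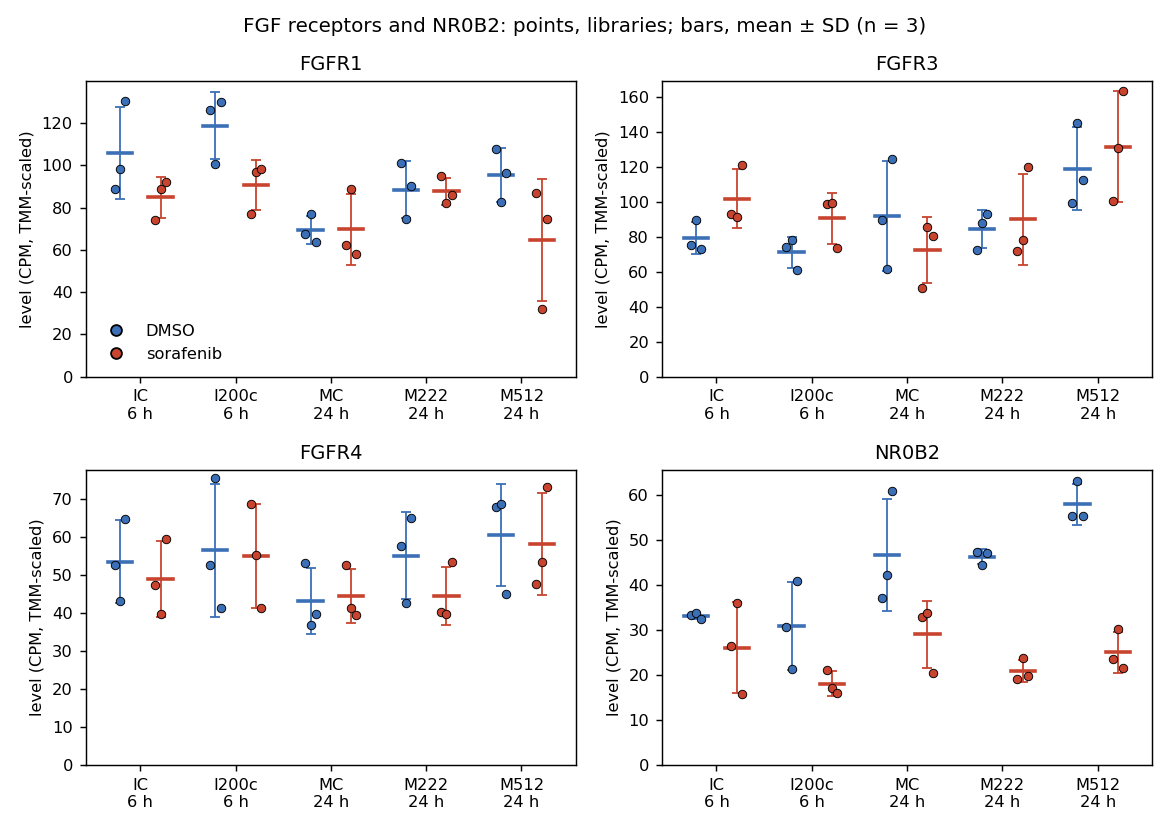
Levels (CPM, TMM-scaled, linear axes from 0) of FGFR1, FGFR3, FGFR4 and NR0B2 in each library, with the mean and SD of 3 (DMSO blue, sorafenib red). NR0B2 libraries separate by drug in every transfection but IC. FGFR4 libraries overlap in all 5 transfections, with group means of 43.3 to 60.6 CPM.

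The hormones were at or near 0 counts. FGF21 (ENSG00000105550; chromosome 19, 48755524 to 48758333, plus strand) had 0 counts in all 30 libraries, which allows up to 0.0151 CPM over all 30 libraries combined and 0.311 to 0.762 CPM in a single one. FGF19 (ENSG00000162344; chromosome 11, 69698238 to 69704022, minus strand) had 5 counts in all, 1 in the first IC library with DMSO and 4 in the third MC library with sorafenib. These limits take 3 counts as what a count of 0 allows and cover counting error only. Neither gene passed the filter, so neither was tested for a sorafenib effect.

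CYP7A1 (ENSG00000167910; chromosome 8) had 279 counts, with none in 5 libraries and at most 40 in 1. In MC it stood at 0.891, 2.95 and 5.64 CPM in DMSO and at 1.26, 0.597 and 0.294 CPM in sorafenib. In M222 the sorafenib libraries held 5.07, 0.227 and 1.54 CPM, and in M512 the DMSO libraries held 4.98, 3.05 and 0.425 CPM. Libraries of a group thus differed by more than the groups did, and DMSO and sorafenib overlapped in all 5 transfections. The 95% intervals of the log2 fold change were -4.67 to 0.48 in MC, -1.19 to 3.88 in M222 and -3.11 to 1.74 in M512. At 6 h CYP7A1 did not pass the filter on low counts.

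Counted together and without KLB, 0 of 5 members tested passed in IC, where 0.0393% of the 12738 genes tested were called. In I200c 0 of 5 passed, against 2.28% of all genes, and in MC 0 of 6, against 2.6% of 13244. In M222 and M512 1 of 6 members passed, NR0B2 both times, against 4.38% and 9.96% of all genes. At an unadjusted p under 0.05 (edgeR), 1 of 5 members passed in IC, 2 of 5 in I200c and 1 of 6 in MC, against 3.78%, 15.3% and 16.9% of all genes. DESeq2 called none of them in these 3 transfections. FGF19 and FGF21 passed no filter and CYP7A1 only that of 24 h.

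**Figure D4:**
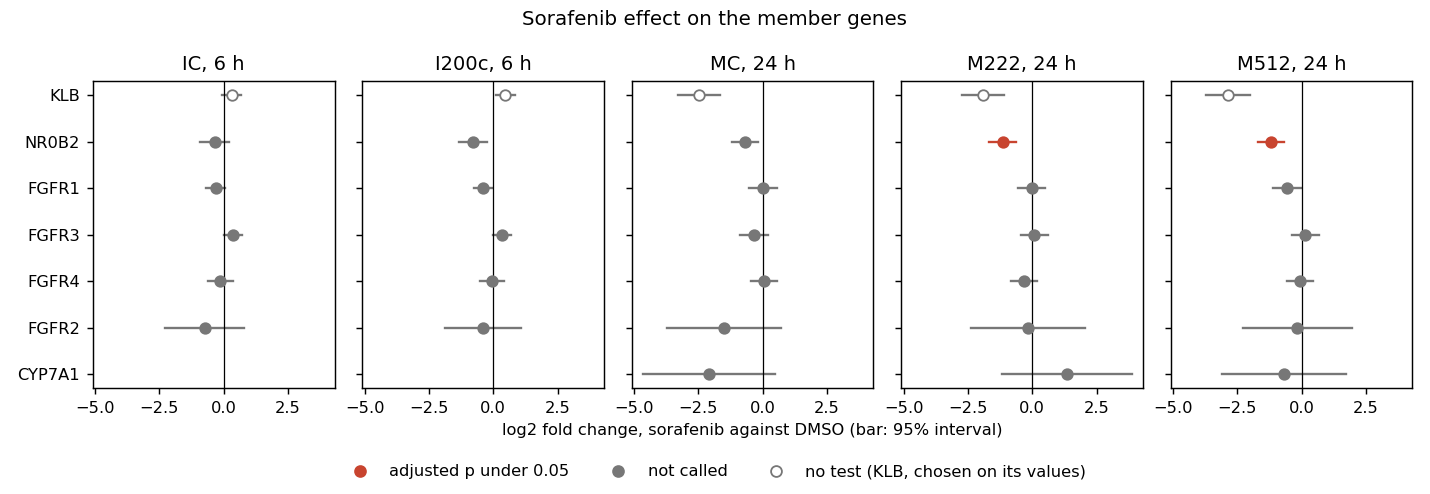
Log2 fold change of sorafenib against DMSO with its 95% interval for the members that passed the filter, in each transfection. Red marks an adjusted p under 0.05 and open symbols KLB, which was given no test. The intervals of KLB are a description only and cannot stand in for a test, because KLB was chosen on its values. KLB lies at -1.90 in M222 and -2.86 in M512, and NR0B2 at -1.15 and -1.21.

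The transfected oligonucleotides could act on members directly, and their seeds are shown because they decide which transcripts a miRNA pairs with. The mature sequences (RefSeq, GRCh38.p14) are written 5′ to 3′ with the seed, bases 2 to 8, in capitals. The I200c oligonucleotide blocks the first of them, and the mimics add the others. No seed was shared.
hsa-miR-200c-3p: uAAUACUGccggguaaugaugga
hsa-miR-222-5p: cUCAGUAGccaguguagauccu
hsa-miR-512-3p: aAGUGCUGucauagcugagguc

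The 7-base complement of each seed was sought in the 3′ untranslated region of each member's canonical transcript (GENCODE release 44). CAGTATT, for miR-200c-3p, was in none of the 9 members and in 16.1% of 19539 such regions. CTACTGA, for miR-222-5p, was in none of the 9 and in 9.22% of regions. CAGCACT, for miR-512-3p, was in KLB (2 matches) and in FGFR1, FGFR2, FGF19 and NR0B2 (1 match each), and in 19.7% of all regions. A match is a description of the letters and not evidence of a working site. The match of NR0B2, a member that passed a test, is shown with 8 bases on either side and the 7 bases in capitals.
NR0B2, chr1:26911720-26911742, minus strand: tgtatagaCAGCACTtggctcct

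In DMSO, KLB averaged 108 CPM in M512 and 184 CPM in MC (log2 fold change -0.78 ± 0.37, SE). It averaged 84.5 CPM in M222, whose miRNA has no match (log2 fold change -1.13 ± 0.38, SE, against MC). In sorafenib the log2 fold changes against MC were -1.16 ± 0.40 (SE) in M512 and -0.56 ± 0.39 (SE) in M222. Both mimics were set against the same MC libraries, and these values carry no test. NR0B2, also with a match, averaged 57.9 CPM in M512 and 46.7 CPM in MC with DMSO (log2 fold change 0.29 ± 0.24, SE). With sorafenib it averaged 25.1 CPM in M512 and 29.1 CPM in MC (-0.23 ± 0.25, SE), and neither contrast passed.

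None of the members tested, KLB left out, passed in any contrast of an oligonucleotide with its control. The background was 0.0157% of genes for I200c against IC in DMSO and 0% in sorafenib, 0% for M222 against MC in DMSO and in sorafenib, and 0.634% and 0.355% for M512 against MC. At an unadjusted p under 0.05 (edgeR), 1 of 6 members passed for M512 in sorafenib, against 11.1% of all genes, and none in the other 5 contrasts, where DESeq2 also called none. It was FGFR3, named after its values were seen, at 132 CPM in M512 against 72.3 CPM in MC with sorafenib (log2 fold change 0.85, adjusted p = 0.17, edgeR). It was called when no low-count filter was used and when all 30 libraries were fitted together.

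No member tested passed for a difference of the sorafenib effect between an oligonucleotide and its control (edgeR), and none had an unadjusted p under 0.05 or was called by DESeq2. The background of called genes was 0% for I200c and M222 and 0.00755% for M512. For KLB, with no test, the difference of log2 fold changes was 0.17 ± 0.25 (SE) for I200c, 0.57 ± 0.54 (SE) for M222 and -0.39 ± 0.54 (SE) for M512. For time, 0 of 5 members passed without KLB, against 0.216% of 12500 genes, and 1 of 5 did at an unadjusted p under 0.05, against 13.7% of all genes. That member was FGFR3, named after its values were seen, at -0.74 ± 0.34 (SE) on the log2 scale, adjusted p = 0.347 (edgeR).

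The wider pathway was read through 7 lists with 98 genes, which do not include the members. The lists were chosen with earlier results of these data known. Their counts and p-values are therefore no independent support. Of 20 other FGF ligands, 9 had no count and none passed the filter. The highest was FGF18 with 65 counts over the 30 libraries, followed by FGF17 with 36. FGF18 reached 1.35, 0.821 and 1.54 CPM in I200c with sorafenib, from 33 counts, and was at 0 counts in MC and M512 with DMSO and in M222 with sorafenib.

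Of 13 co-receptors and proteoglycans, 10 were tested, and 1 passed, in M512, where 9.96% of all genes did. It was SDC4, a heparan sulfate proteoglycan of the cell surface, at 154, 129 and 135 CPM in DMSO and 230, 200 and 285 CPM in sorafenib (1.72-fold higher, adjusted p = 0.0137, edgeR). GPC3, a glypican typical of liver tumours, was at 915 CPM in MC with DMSO and 642 CPM with sorafenib and passed in no transfection (adjusted p = 0.125 in MC, edgeR). The median log2 fold change of the 10 was -0.47 in M512, -0.395 in M222 and -0.35 in MC, beside -0.03, -0.035 and -0.015 for all genes tested. At 6 h the median of the 10 was 0.002 in IC and 0.054 in I200c.

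Of 11 adaptors next to the receptor, 10 were tested. In IC and in I200c 1 of them passed, against 0.0393% and 2.28% of all genes. In M512 1 passed as higher and 1 as lower, against 9.96%. SOS1, the exchange factor that loads RAS, was lower with sorafenib in IC, I200c and M512. In I200c it fell from 176, 181 and 196 CPM to 49.1, 48.3 and 55.3 CPM (3.64-fold lower, adjusted p = 7.83e-06, edgeR), and in IC from 146, 117 and 121 CPM to 66.6, 59.2 and 34.8 CPM (2.40-fold lower, adjusted p = 0.0193, edgeR). SOS1 was the only list gene called in IC, where that call was lost without the first DMSO library or without the third sorafenib library. FRS2, the docking protein that links FGF receptors to RAS, rose in M512 from 15.7, 8.98 and 14.7 CPM to 32.9, 31.6 and 23.9 CPM (2.25-fold higher, adjusted p = 0.0297, edgeR). No adaptor passed in MC or M222, where 2.6% and 4.38% of all genes were called.

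Of 14 feedback and output genes of ERK signalling, 11 were tested. In I200c 2 passed, against 2.28% of all genes, and in MC 1 passed, against 2.6%. DUSP6, the ERK phosphatase, fell in I200c from 60.2, 51.8 and 56.9 CPM to 18.8, 26.1 and 25.6 CPM (2.41-fold lower, adjusted p = 0.00144, edgeR). EGR1, an immediate early transcription factor, fell in I200c from 12.99, 8.79 and 22.03 CPM to 2.70, 0.923 and 3.09 CPM (6.60-fold lower, adjusted p = 0.00547, edgeR). SPRED2, an inhibitor of the RAS to ERK step, rose in MC from 11.3, 11.8 and 3.91 CPM to 28.9, 24.9 and 35.4 CPM (3.34-fold higher, adjusted p = 0.0191, edgeR). In IC, M222 and M512 none of the 11 passed, against 0.0393%, 4.38% and 9.96% of all genes. The list's median log2 fold change was -0.70 in I200c and -0.336 in IC, beside 0.005 and 0.002 for all genes. It was 0.435 in MC, -0.375 in M222 and 0.095 in M512.

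Of 18 genes of bile acid synthesis and transport other than CYP7A1, 11 were tested at 24 h and 2 passed, both lower in M512, where 9.96% of all genes were called. AKR1D1, a reductase of the bile acid pathway, fell from 9.96, 8.37 and 13.5 CPM to 1.54, 3.71 and 5.48 CPM (2.92-fold lower, adjusted p = 0.0351, edgeR). CYP8B1, the enzyme that makes cholic acid, had 108 counts in the 3 DMSO libraries of M512 and 1 count in the sorafenib libraries (adjusted p = 0.0109, edgeR), and no fold is given for so few counts. Its MC libraries held 31 counts with DMSO and 1 with sorafenib, which did not pass (adjusted p = 0.11, edgeR). None passed at 6 h. The list's median log2 fold change was -0.63 in M512, -0.454 in MC and -0.43 in M222, beside -0.03, -0.015 and -0.035 for all genes. At 6 h it was 0.077 in IC and 0.256 in I200c.

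Of 12 nuclear regulators of bile acid genes, 11 were tested at 24 h, and these moved in both directions. In M222 2 passed as higher and 2 as lower, where 4.38% of all genes were called. In M512 2 passed as higher and 3 as lower, against 9.96%. In MC 1 passed as higher, against 2.6%, and in I200c 1 of 10 tested, against 2.28%. HNF4A, the hepatocyte nuclear receptor, fell in M512 from 256, 253 and 259 CPM to 111, 90.2 and 88.9 CPM (2.64-fold lower, adjusted p = 0.000145, edgeR) and in M222 from 223, 197 and 217 CPM to 107, 143 and 102 CPM (1.82-fold lower, adjusted p = 0.0202, edgeR). PROX1, a repressor partner of HNF4A, passed as lower in M222 and M512, and NR1H4, which encodes FXR, passed as lower in M512 (2.07-fold, adjusted p = 0.00589, edgeR). MAFG, a small MAF protein that FXR induces and that represses bile acid genes, rose in all 3 transfections of 24 h, 3.46-fold in MC, 3.07-fold in M222 and 2.70-fold in M512 (adjusted p = 0.00153, 0.00347 and 0.0034, edgeR). FOXA2, a pioneer factor of the liver, rose 2.02-fold in I200c, 2.06-fold in M222 and 1.86-fold in M512 (adjusted p = 0.000605, 0.00306 and 0.0042, edgeR).

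Of 10 regulators of FGF21, all were tested, and 3 passed as higher in MC, 4 in M222 and 4 in M512, where 2.6%, 4.38% and 9.96% of all genes were called in either direction. The median log2 fold change of the 10 was 0.174 in MC, -0.108 in M222 and 0.055 in M512. DDIT3, the stress factor CHOP, rose in 4 transfections, from 12.1, 9.04 and 7.90 CPM to 29.0, 27.6 and 37.6 CPM in I200c and from 11.5, 17.7 and 9.41 CPM to 81.2, 38.8 and 79.3 CPM in MC (3.24-fold and 5.26-fold, adjusted p = 0.000627 and 0.000907, edgeR). ATF3, a stress-induced repressor, rose at 24 h from 3.49, 2.74 and 5.24 CPM to 58.9, 51.1 and 81.4 CPM in M512 (16.6-fold, adjusted p = 3.95e-05, edgeR). TRIB3, a pseudokinase induced by ATF4 and CHOP, rose 3.22-fold in MC, 3.46-fold in M222 and 3.60-fold in M512. ATF4, the stress factor that drives FGF21, rose 1.92-fold in M222 and 2.27-fold in M512 (adjusted p = 0.0217 and 0.00214, edgeR). PPARA, the fasting regulator of FGF21, was 3.23-fold lower in M512 (adjusted p = 0.00103, edgeR) and passed in no other transfection.

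FGF21 itself stayed at 0 counts in the same libraries in which these regulators rose. Its promoter window at chr19:48755274-48755573, plus strand, is shown because it holds the CARE word on the minus strand, in capitals, 54 bases before the transcript start. Of 35116 RefSeq promoter windows of this length, 3.62% hold TGATGNAA on either strand. The other 3 words were absent from the FGF21 window. Among the members, a promoter window of FGFR2 also holds the CARE word, 191 bases before its transcript start.
FGF21 promoter: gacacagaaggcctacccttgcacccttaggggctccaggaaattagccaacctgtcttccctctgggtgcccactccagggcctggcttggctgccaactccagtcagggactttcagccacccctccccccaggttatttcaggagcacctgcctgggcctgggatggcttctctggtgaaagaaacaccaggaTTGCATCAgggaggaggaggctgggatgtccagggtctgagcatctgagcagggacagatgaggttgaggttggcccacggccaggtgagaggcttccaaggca

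**Figure D5:**
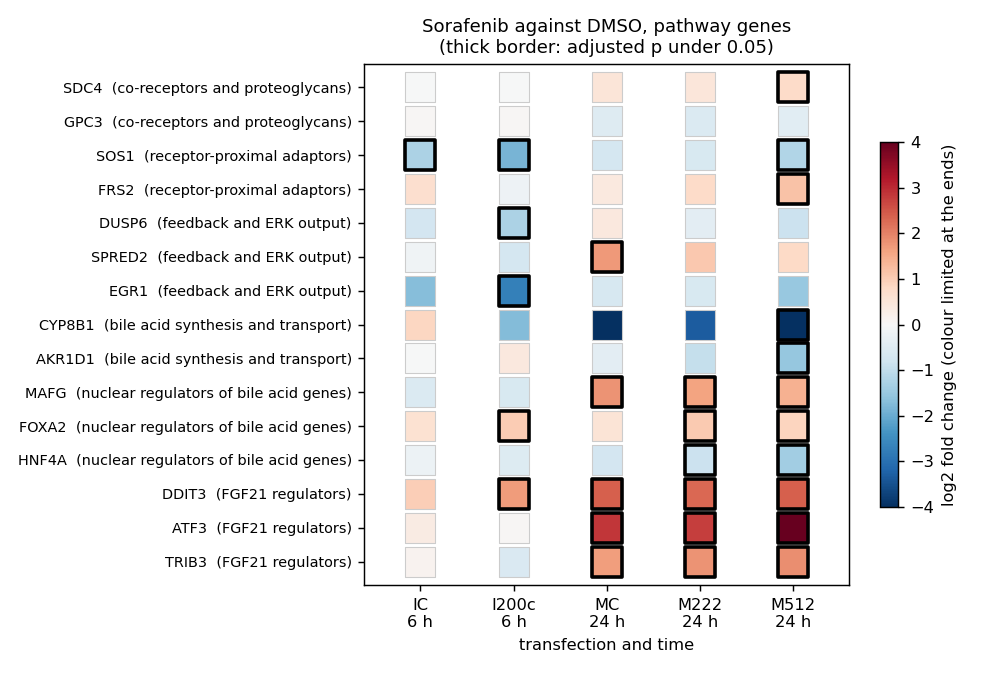
Log2 fold change of sorafenib against DMSO (colour, limited at the ends of the scale) for the 15 tested pathway genes named by a rule from the lists, by transfection and time. Thick borders mark an adjusted p under 0.05. DDIT3 is called in 4 transfections, and SOS1, FOXA2, ATF3, TRIB3 and MAFG in 3. The colours of CYP8B1 rest on 1 to 5 counts in the sorafenib groups of 24 h.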

How the data were processed

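Messenger RNA of 30 HepG2 cultures was read with QuantSeq 3′ FWD libraries. The authors aligned the reads with STAR to GRCh38 and counted them per gene with HTSeq, and the deposited table holds these raw counts. Versions of the aligner and counter, strand handling and any molecular identifiers are not given in the sources used here. A deposited table of normalised values was not used. The 92 lines that name no gene held 3 counts (1.51e-06% of all) and were left out.

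Counts were tested with the quasi-likelihood test of edgeR 4.0.16 (R 4.3.3, TMM scaling, filterByExpr, two-sided, Benjamini-Hochberg over all genes tested, called under 0.05). The 12 libraries of 6 h, the 18 of 24 h and the 12 of IC and MC were fitted apart, with 1 mean per group. Sorafenib was compared with DMSO in each transfection, each oligonucleotide with its control, and these effects with each other. KLB was left out of all tests, because it was chosen on its values. The p-values rest on the spread among the 3 replicates within groups, pooled over all groups of a fit and drawn towards a trend over all genes. Replicates differed beyond counting error (chi-square per degree of freedom 4.54 to 66.2 over 30 pairs). Same-numbered libraries deviated together (every r above 0.1) in 2 of the 11 comparisons of groups, M222 with sorafenib against DMSO (0.124 to 0.153) and M222 against MC in DMSO (0.233 to 0.27). The code was tested on simulated data. Alternatives were DESeq2 1.42.0, RLE factors, total counts, no filter on low counts, 1 fit of all 30 libraries, a replicate block and leaving out each library.

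The members and the lists were chosen with earlier results of these data known. All 9 members were named. From each list the rule named up to 3 genes called in the most transfections (ties by p in M512), or the most abundant up to 2. NR1H4, PROX1, ATF4 and PPARA were named after their values were seen, to complete small counts. Coordinates and regions came from GENCODE 44, which may differ from the release used in counting. The sequences around the KLB matches are not reported here.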

Additional observations from a re-analysis of the deposited data

Results flagged for a closer look

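KLB had been chosen for its lower level with sorafenib at the later time, so the values here restate that choice and are no new result. Its libraries with sorafenib moved in opposite directions in different transfections. In I200c all 3 sorafenib libraries were above all 3 DMSO libraries (log2 fold change 0.47), while in MC, M222 and M512 all sorafenib libraries were below all DMSO libraries (-2.47, -1.90 and -2.86). In IC, the other transfection of 6 h, the libraries overlapped (0.30). Because KLB was chosen on its values, this difference was not tested, and time goes with the kind of oligonucleotide.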

How the results depend on the processing

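KLB and NR0B2 kept their direction in every transfection under all 12 alternatives, and the NR0B2 call in M512 held under each of them. The log2 fold change of KLB in M512 was -3.25 to -2.59 and that of NR0B2 -1.41 to -1.09. Leaving out 1 library gave 0 to 1 member called in M222 and 0 to 1 in I200c. With no filter on low counts 1 member was called in I200c (NR0B2) and 1 for M512 against MC in sorafenib (FGFR3), and 1 fit of all 30 libraries also called 1 in the last contrast (FGFR3). The replicate block left 1 member called in M222, 1 in M512 and 0 elsewhere, so it changed no call of a member. Over the DMSO and sorafenib libraries of all 5 transfections, same-numbered libraries correlated at -0.179 to 0.332, above 0.1 in 7 of 15 pairs.

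In the main fits 1 of 61 list genes tested was called in IC and 5 in I200c, against 0.0393% and 2.28% of all genes. Of 63 tested at 24 h, 5 were called in MC, 8 in M222 and 15 in M512, against 2.6%, 4.38% and 9.96%. The shares of all genes called under the other settings were not compared with the counts below. List genes called in IC numbered 3 by DESeq2, 2 with no filter, 0 in 1 fit of all libraries and 0 to 1 with a library left out. In M512 they numbered 21 with total counts. In I200c they numbered 9 with no filter and 5 to 9 with a library left out (9 without DMSO replicate 2). In MC they numbered 10 by DESeq2, 8 with no filter, 11 in 1 fit of all libraries and 4 to 9 with a library left out (9 without sorafenib replicate 2). With a library left out they numbered 5 to 9 in M222 (5 without DMSO replicate 3 or sorafenib replicate 3) and 9 to 15 in M512 (9 without DMSO replicate 2). The cause of these differences was not tested.

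Total-count scaling moved the median log2 fold change of all genes to -0.122 for MC, -0.141 for M222 and -0.219 for M512, so changes under it are relative to that. Signs changed only for members that were not called. FGFR1 in MC was -0.016 by DESeq2 and with RLE factors and -0.089 with total counts, FGFR4 in MC -0.071 with total counts, FGFR3 -0.021 in M222 and -0.038 in M512 with total counts, and FGFR2 in M222 0.029 with the replicate block. With a library left out, FGFR1 ranged over -0.178 to 0.14 in MC and -0.096 to 0.095 in M222, FGFR2 over -0.397 to 0.434 in M222 and -2.069 to 0.414 in M512, FGFR3 over -0.139 to 0.256 in M222 and -0.027 to 0.349 in M512, and CYP7A1 over -1.163 to 0.022 in M512. FGFR4 ranged over -0.295 to 0.044 in IC, -0.23 to 0.237 in I200c, -0.081 to 0.239 in MC and -0.247 to 0.081 in M512.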
